A study of Mus musculus with 2 samples.

Results

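The genes described here are 9 markers of the fetal liver and of the bile duct lineage, namely Afp, Gpc3, Igf2, Igf2bp3, Sox9, Epcam, Krt7, Krt19 and Cd24a. They were taken by name, through RefSeq identifiers, from the 20317 genes of the mRNA table that could be given a symbol. All 9 were found, through 11 transcripts. The table writes any RPKM (reads per kilobase of transcript, scaled to the size of the library) below 1 as 0, and 6 of the 9 genes had a value in at least 1 library, against 12012 of the 20317 genes.

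The libraries were made from hepatocytes of wild-type male C57BL/6J mice, which were 5 weeks old at the start according to the methods. The control library came from mice given intraperitoneal oil, and the CCl4 library from mice given a 20% CCl4 solution in oil, 2 injections a week at 2.5 ml of CCl4 per kg. The labels give 8 weeks of injection and the methods of the study 4 weeks. CCl4 is a solvent that injures the hepatocytes metabolizing it, and repeated doses scar the liver. The hepatocytes were freed by pronase and collagenase perfusion and separated on a density gradient, so cells other than hepatocytes can remain. How many mice gave each library is not given in the sources used here. With 1 library per condition no difference has a replicate check, no test across conditions was possible, and every interval below covers counting error only. In such bulk RNA, more cells of a type and more RNA per cell cannot be told apart.

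The fetal liver makes proteins that the adult organ shuts off after birth. Afp encodes alpha-fetoprotein, the fetal counterpart of albumin. Gpc3 encodes glypican 3, a heparan sulfate proteoglycan of the cell surface, and Igf2 an imprinted growth factor whose messenger is bound by the protein of Igf2bp3. All 4 are known as oncofetal genes because liver tumors can switch them on again. The bile duct epithelium (cholangiocytes) descends from the same hepatoblasts as hepatocytes do, is marked by the transcription factor Sox9, the adhesion molecule Epcam and the keratins Krt7 and Krt19, and expands in many chronic liver injuries as a ductular reaction. Cd24a encodes a small glycoprotein anchored in the membrane, found on duct and progenitor cells and also on B cells, neutrophils and red cell precursors.

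Promoter windows of RefSeq (GRCm38.p6, 250 bases before to 50 after the annotated start) were matched for 6 of the 9 genes, and those of 4 genes with a value in the CCl4 library are shown to set the fetal serum protein gene beside the fetal and ductal surface and filament genes. Sox9, Krt19 and Cd24a had no matched window. Both strands were searched for 5 strings. The first string was TATAAA, the box that binds the general initiation machinery. The HNF1 core, for the hepatocyte factor of that name, was spelled GTTAAT in this search. For the GC box, which SP family factors bind, the string was GGGCGG in either orientation. The core recognized by SOX family factors was written as ACAAAG for this purpose. An E box of a palindromic type was entered as CACGTG. Capitals mark their matches, no match overlapped another, and a match is a string and not a measured binding site. The windows are Afp at chr5:90490464-90490763 (plus strand), Gpc3 at chrX:52613925-52614224 (minus strand), Krt7 at chr15:101412153-101412452 (plus strand) and Epcam at chr17:87635729-87636028 (plus strand), each written 5′ to 3′ along the gene.
Afp: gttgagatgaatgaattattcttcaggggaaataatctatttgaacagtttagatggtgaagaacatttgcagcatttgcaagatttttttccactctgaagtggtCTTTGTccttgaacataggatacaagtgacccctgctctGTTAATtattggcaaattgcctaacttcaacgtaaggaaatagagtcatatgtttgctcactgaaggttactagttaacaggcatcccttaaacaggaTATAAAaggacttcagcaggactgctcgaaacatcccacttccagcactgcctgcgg
Gpc3: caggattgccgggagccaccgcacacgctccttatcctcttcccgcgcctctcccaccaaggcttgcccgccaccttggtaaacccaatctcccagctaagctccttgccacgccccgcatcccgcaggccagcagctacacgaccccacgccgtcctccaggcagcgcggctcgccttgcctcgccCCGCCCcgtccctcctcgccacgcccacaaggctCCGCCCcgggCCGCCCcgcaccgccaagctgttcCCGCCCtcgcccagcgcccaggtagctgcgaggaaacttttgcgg
Krt7: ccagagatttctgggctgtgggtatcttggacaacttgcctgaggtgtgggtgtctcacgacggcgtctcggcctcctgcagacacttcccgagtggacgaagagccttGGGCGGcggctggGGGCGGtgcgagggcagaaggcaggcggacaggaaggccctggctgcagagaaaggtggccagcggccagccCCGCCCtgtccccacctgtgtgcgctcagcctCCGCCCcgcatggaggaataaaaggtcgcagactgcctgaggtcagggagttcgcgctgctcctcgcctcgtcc
Epcam: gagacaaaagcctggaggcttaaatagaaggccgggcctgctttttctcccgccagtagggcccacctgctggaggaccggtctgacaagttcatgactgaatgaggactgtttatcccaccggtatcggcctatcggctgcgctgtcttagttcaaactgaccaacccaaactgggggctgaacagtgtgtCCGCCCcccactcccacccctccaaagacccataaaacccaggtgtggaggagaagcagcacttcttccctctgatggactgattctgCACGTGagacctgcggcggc

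The Afp window held 1 TATAAA string (TATA box), 1 HNF1 core and 1 SOX core, strings found in 13.6%, 7.10% and 18.7% of the 32851 promoter windows of the same length. It held no GC box, a string present in 35.7% of windows. Its GC content was 40.0% with 3 CpG dinucleotides. The Gpc3 and Krt7 windows were of the other kind, each with 4 GC boxes, with a GC content of 70.7% and 66.3% and with 30 and 21 CpG dinucleotides. The Epcam window lay between them at 57.0% GC and 11 CpG, with 1 GC box and 1 E box, the latter a string found in 7.15% of windows. The median window had 52.7% GC and 7 CpG.

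Of the 9 genes, 5 had a value in both libraries, 1 (Afp) in the CCl4 library only, and 3 (Igf2, Igf2bp3 and Sox9) were listed at 0 in both. The 5 genes with both values were higher in the CCl4 library, as were 67.6% of the 10689 genes with both values, and the direction of Afp was fixed by its being listed there only. A gene was counted as called when its RPKM differed by at least 2-fold, with the cutoff of 1 RPKM put in place of a listed 0. On that count 3 genes (Afp, Gpc3 and Krt19) were called higher and 0 lower. Over all genes with a value, 16.5% were called higher and 5.39% lower, and the median gene with a value in both libraries itself had a log2 change of 0.30. Scaling both libraries to that median gave 1128 genes (9.39%) higher and 1129 (9.40%) lower instead of 1984 and 647. Of the 3 called genes only Afp then remained past 2-fold.

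**Figure D1:**
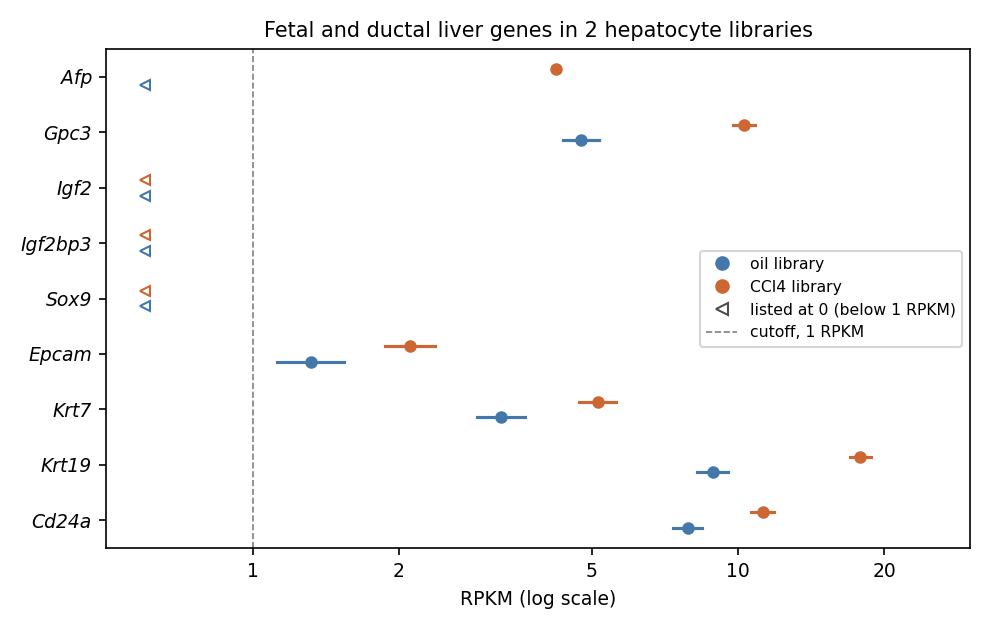
RPKM of the 9 genes on a log axis in the oil library (blue) and the CCl4 library (orange), 1 library per condition. Bars are 95% exact Poisson intervals from recovered reads and cover counting error only, and open triangles stand for values listed at 0. Krt19 was the most abundant of the genes in both libraries, and Igf2, Igf2bp3 and Sox9 were under the cutoff of 1 RPKM in both.

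Afp, on chromosome 5 (90490714 to 90508907), was listed at 0 in the oil library and at 4.21 RPKM in the CCl4 library. The CCl4 value is 4.21 times the cutoff, and since the oil value could lie anywhere below the cutoff, no fold change is given. Appearing only in the CCl4 library was not rare, since 1162 genes did so against 161 listed in the oil library only. Among those 1162 genes Afp stood high, with 74 above it, a median of 1.57 RPKM and a maximum of 28.2 RPKM. It was still a minor transcript of the CCl4 library, where 32.8% of the listed genes had a lower RPKM, and Alb, the adult albumin gene, had 1538 times its value. The methods of the study use alpha-fetoprotein as a hepatocyte marker for purity, and in the oil library that transcript was below the cutoff while Alb stood at 8656 RPKM.

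Afp lies in the albumin gene cluster. Of 4 nearby genes 0 were called higher with it and 1 lower, beside 16.5% and 5.39% of all genes. Alb, upstream of it, had 8656 (oil) and 6476 RPKM (CCl4), a log2 change of -0.42. Afm, which encodes the vitamin E-binding serum protein afamin and lies downstream, went from 33.3 to 20.2 RPKM (log2 change -0.72). Albfm1, an albumin family gene further downstream, was called lower, from 7.95 to 2.80 RPKM (log2 change -1.51). Ankrd17, an unrelated gene on the other side of Alb, had 4.65 and 5.63 RPKM (log2 change 0.28). Scaling to the median gene lowers each log2 change by 0.30, which puts Afm past 2-fold lower as well. These genes were looked up after the Afp values were known.

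The factors known to act on Afp were measured as a list of 11 genes, all with a value in at least 1 library. Of these, 0 were called higher and 2 lower, beside the 16.5% and 5.39% of all genes. Scaled to the median gene, 0 were higher and 4 lower, beside 9.39% and 9.40% of all genes. The 2 called lower before scaling were Hnf4a, the nuclear receptor that maintains hepatocyte identity, and the forkhead factor Foxa3. Hnf4a went from 148.9 to 50.1 RPKM (log2 change -1.57) and Foxa3 from 47.7 to 11.2 RPKM (log2 change -2.09). The most abundant others were Cebpb, at 114.2 and 88.3 RPKM, and Cebpa, at 92.5 and 98.1 RPKM. The postnatal repressors of Afp, named here after their values were seen, were not called. Zbtb20 had 12.0 and 9.52 RPKM, Zhx2 3.77 and 3.70 RPKM and Zfhx3 1.78 and 2.72 RPKM, the last a log2 change of 0.61.

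Gpc3, on the X chromosome (52272426 to 52613974), had 4.75 (oil) and 10.3 RPKM (CCl4), from at least 555 and 1340 reads. It was 2.17-fold higher (log2 change 1.11), and counting error places the log2 change between 0.97 and 1.26 (95% exact Clopper-Pearson interval, as below). This was the largest ratio among the 5 genes with a value in both libraries, and 1274 of the 10689 genes with both values had a larger one. Scaled to the median gene it was 1.76-fold. A value was given for 4 of 6 glypican genes. Gpc1 went from 3.09 to 6.32 RPKM (log2 change 1.03), Gpc4 had 8.06 and 8.95 RPKM (0.15), and Gpc6 was listed at 0 in the oil library and at 1.77 RPKM in the CCl4 library. In the oil library Gpc4 therefore had a higher RPKM than Gpc3, and in the CCl4 library Gpc3 was the highest glypican.

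Igf2, on chromosome 7 (142650768 to 142666816), was listed at 0 in both libraries for each of its 3 transcripts (NM_001122736, NM_001122737 and NM_010514). Igf2bp3, on chromosome 6 (49085218 to 49215469), was likewise listed at 0 in both. These values say that each transcript stayed below 1 RPKM, not that it was absent. No change below the cutoff could be seen in the RPKM values used. The sister genes gave little more, with Igf2bp1 at 0 in both libraries and Igf2bp2 at 0 in the oil library and just at the cutoff in the CCl4 library. The transcript antisense to Igf2, Igf2os, was also listed at 0 in both.

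Of the other IGF pathway genes (the ligand Igf1, receptors and binding proteins), all 12 had a value in at least 1 library. On the main count 3 were called higher and 2 lower (16.5% and 5.39% of all genes). Scaled to the median gene, 3 were higher and 3 lower (9.39% and 9.40% of all genes). The receptor gene Igf1r was listed at 0 in the oil and at 2.65 RPKM in the CCl4 library, while Igf2r, whose product clears IGF2 from the cell surface, went from 6.38 to 12.6 RPKM (log2 change 0.99). Igfbp3, the main carrier of IGFs in serum, went from 3.52 to 46.5 RPKM (log2 change 3.72), and Igfbp7 from 175.1 to 613.7 RPKM (log2 change 1.81). Igfbp1, a secreted product of hepatocytes, went the other way from 344.0 to 42.8 RPKM (log2 change -3.01), as did Igfals, the acid-labile subunit of the serum IGF complex, from 36.7 to 12.7 RPKM (log2 change -1.53). Igfbp4, the other abundant gene, had 357.5 and 248.1 RPKM. The median of the list was 0.25 and changed sign, to -0.054, once the libraries were scaled to the median gene, as it did (-0.26) over the 11 genes with a value in both libraries.

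Krt19, on chromosome 11 (100140810 to 100145926), had 8.86 (oil) and 17.8 RPKM (CCl4), from at least 706 and 1585 reads. The ratio was 2.01 (log2 change 1.01, counting interval 0.88 to 1.14), so that the 2-fold threshold lies inside its interval. Krt7, on chromosome 15 (101412403 to 101427806), had 3.25 and 5.14 RPKM, from at least 299 and 527 reads, a ratio of 1.58 (log2 change 0.66, interval 0.45 to 0.87). Epcam, on chromosome 17 (87635979 to 87651127), was nearest to the cutoff with 1.32 and 2.11 RPKM, from at least 158 and 281 reads, a ratio of 1.60 (log2 change 0.67, interval 0.39 to 0.96). The intervals of Krt7 and Epcam overlap almost wholly, and that of Krt19 lies just above that of Krt7 but overlaps that of Epcam. Relative to the median gene the ratios were 1.63 for Krt19, 1.28 for Krt7 and 1.29 for Epcam. Sox9, on chromosome 11 (112782210 to 112787757), was listed at 0 in both libraries.

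Cd24a, on chromosome 10 (43579169 to 43584265), had 7.88 (oil) and 11.3 RPKM (CCl4), from at least 830 and 1321 reads. Its ratio of 1.43 (log2 change 0.51, interval 0.39 to 0.64) was the smallest among the 5 genes, 3923 of 10689 genes had a larger one, and relative to the median gene it was 1.16. The genes of other cells that carry this antigen are given beside the 16.5% of all genes called higher and 5.39% called lower. Of 6 B cell genes with a value, 4 were called higher (Cd79b from 3.67 to 11.2 RPKM, Cd79a from 1.40 to 5.62 RPKM, Cd22 from 1.35 to 5.11 RPKM), and their summed level over the list was 6.43 (oil) and 28.5 RPKM (CCl4), with Pax5 and Ebf1 at 0 in both. Of 9 neutrophil genes 1 was called higher and 1 lower, and S100a9, S100a8 and Retnlg led the list at 163.1, 114.4 and 17.0 RPKM in the oil and 91.5, 65.2 and 48.7 RPKM in the CCl4 library. Of 8 red cell genes with a value 0 were called higher and 3 lower, with Hbb-bs at 1091 and 773 RPKM, Hba-a1 at 907 and 623 RPKM and Hba-a2 at 906 and 622 RPKM, the last pair being near-identical copies whose reads can be shared. Scaling to the median gene, under which 9.39% of all genes were called higher and 9.40% lower, left 4 B cell genes higher. With that scaling 1 neutrophil gene was higher and 4 were lower, and 4 red cell genes were lower. The part of these cells in the Cd24a values was not tested.

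**Figure D2:**
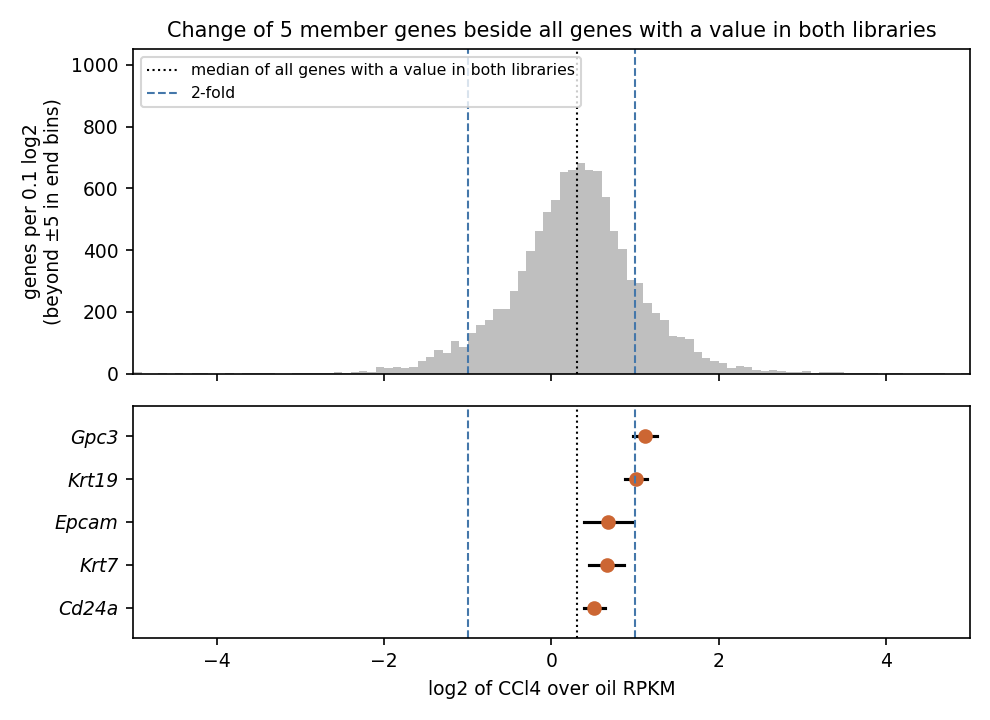
The upper panel counts genes with a value in both libraries by the log2 of their CCl4 over oil RPKM, and the lower panel gives the 5 genes with both values (points) with 95% counting intervals (bars). The dotted line is the median of all those genes and the dashed lines mark 2-fold. All 5 genes lay above the median, and the points of Gpc3 and Krt19 alone were past 2-fold.

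By RPKM, which corrects for transcript length, the 5 genes kept their order. In the oil library it ran from Krt19 (8.86) through Cd24a (7.88), Gpc3 (4.75) and Krt7 (3.25) to Epcam (1.32), and in the CCl4 library Afp (4.21) took a place between Krt7 and Epcam. Krt19 and Cd24a overlapped in the oil library (95% exact Poisson intervals 8.22 to 9.54 and 7.35 to 8.44 RPKM), as did Cd24a and Gpc3 in the CCl4 library (10.7 to 11.9 and 9.75 to 10.9 RPKM), and the other neighboring pairs with intervals did not. All of these were low transcripts beside the hepatocyte genes: in the oil library Alb had 977 times the RPKM of Krt19 and 6548 times that of Epcam, and in the CCl4 library 363 and 3071 times.

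The keratins differed in direction among themselves. Krt8 and Krt18, the keratin pair of the hepatocyte that duct cells also make, were both called lower, from 171.5 to 67.5 RPKM (log2 change -1.35) and from 129.7 to 42.9 RPKM (log2 change -1.60). Krt19 was called higher and Krt7 was within 2-fold, and after scaling to the median gene both were within 2-fold. Of 49 keratin genes 41 were listed at 0 in both libraries, and of the 8 with a value 3 were called higher and 2 lower, beside 16.5% and 5.39% of all genes. The other 2 called higher, Krt14 (1.93 and 5.41 RPKM) and Krt80 (0 and 3.03 RPKM), were about as low as Krt7, and Krt14 is a keratin of stratified epithelium. Krt23, a keratin induced in ductular reactions, was listed at 0 in both libraries.

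The other bile duct genes did not give a common direction. Of 27 such genes 16 had a value, with 4 called higher and 4 lower (16.5% and 5.39% of all genes). Scaled to the median gene, 3 were higher and 5 lower (9.39% and 9.40% of all genes). The median log2 change of the list, 0.27, became -0.032 after that scaling and 0.58 over the 12 genes with a value in both libraries. Those higher before scaling were Sox4, a SOX factor of duct development, from 1.79 to 8.35 RPKM (log2 change 2.23), and Spp1, which encodes osteopontin, from 37.4 to 145.1 RPKM (1.95). With them were Bicc1, from 1.38 to 5.17 RPKM (1.90), and the hyaluronan receptor Cd44, from 13.6 to 29.8 RPKM (1.13). Spp1, Cd44 and Sox4 are made by other cells as well, macrophages and lymphocytes among them. Those lower, beside Krt8 and Krt18, were Tnfrsf12a, the receptor for the progenitor mitogen TWEAK, from 21.8 to 6.80 RPKM (-1.68), and Dmbt1 from 52.0 to 23.0 RPKM (-1.18). Aqp1, the water channel of cholangiocytes and endothelium, was the most abundant, at 234.3 and 406.4 RPKM (0.79).

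Many genes commonly used to mark ducts were under the cutoff. The list held 11 genes at 0 in both libraries, among them Cldn4, Cldn7, Cftr, Sctr, Elf3, Ehf, Muc1, Cdh6 and Krt23, and Sox9 was at 0 with them. Prom1 and Pkhd1 were listed at 0 in the oil library and barely above the cutoff in the CCl4 library. Cftr and Sctr encode the chloride channel and the secretin receptor through which ducts secrete bicarbonate. Of 19 SOX genes 8 had a value and 3 of these were called higher, beside 16.5% of all genes, namely Sox4, Sox17 (1.77 and 5.19 RPKM) and Sox18 (6.73 and 18.7 RPKM), the last pair factors of endothelium.

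Krt19 and Krt7 are also made by mesothelial cells, the layer that covers the liver surface, and mesothelial genes were present in both libraries. Of 9 mesothelial genes in the table all had a value in at least 1 library and 7 in both. On the main count 4 were called higher and 0 lower (16.5% and 5.39% of all genes). Scaled to the median gene, 3 were higher and 0 lower (9.39% and 9.40% of all genes). Msln, which encodes mesothelin, had 14.7 and 20.4 RPKM (log2 change 0.47), and Upk3b, a uroplakin of mesothelium, 10.1 and 18.5 RPKM (0.87), levels like those of Krt19. Gpm6a had 6.75 and 8.22 RPKM (0.28). Wt1, the transcription factor of the mesothelial lineage, was listed at 0 in the oil and at 3.16 RPKM in the CCl4 library. The summed level of the list was 40.4 (oil) and 72.5 RPKM (CCl4). The part of mesothelial cells in the Krt7 and Krt19 values was not tested.

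**Figure D3:**
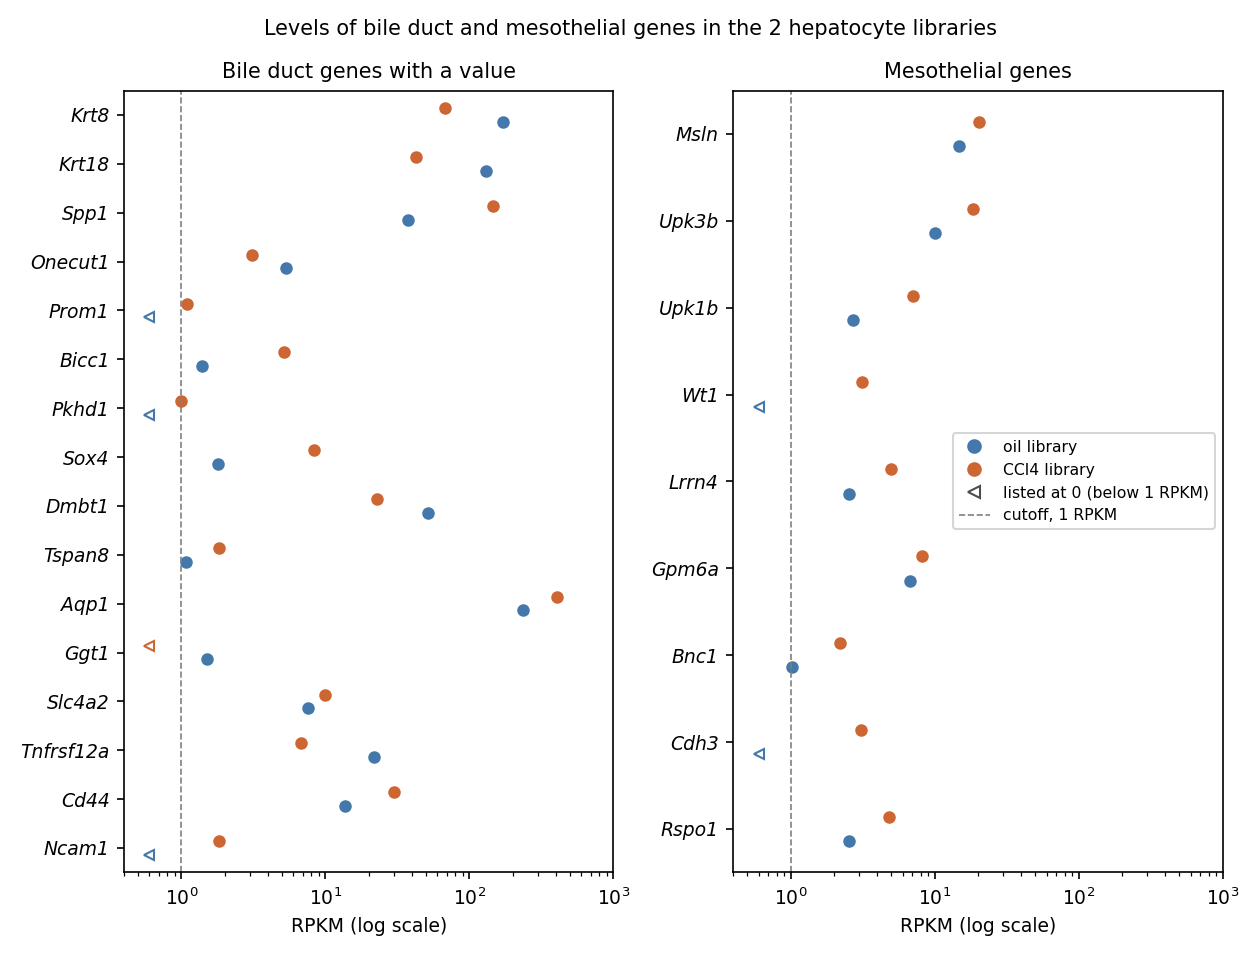
RPKM on a log axis of the 16 bile duct genes with a value (left) and the 9 mesothelial genes in the table (right), in the oil library (blue) and the CCl4 library (orange). Open triangles are values listed at 0, and the 11 bile duct genes at 0 in both libraries are not drawn. Aqp1 was the highest bile duct gene and Msln the highest mesothelial gene in both libraries.

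Of the other fetal liver genes, the 7 with a value in both libraries were higher in the CCl4 library, beside 67.6% of all such genes, although the log2 change of Gpc4 (0.15) was below that of the median gene. Another 4 (Igf2bp2, Peg3, Plagl1 and Gpc6) were listed in the CCl4 library only, which fixed their direction. Of 22 such genes 21 were in the table and 11 had a value, with 7 called higher and 0 lower, beside 16.5% and 5.39% of all genes. After scaling to the median gene 3 of the 7 remained called and 0 were lower, beside 9.39% and 9.40% of all genes. The median log2 change was 1.03 against 0.33 for all genes treated alike, and 0.73 after that scaling. The largest ratio was that of Mest, an imprinted gene of the mesoderm, from 1.87 to 13.2 RPKM (log2 change 2.82), followed by Cdkn1c, an imprinted inhibitor of cyclin-dependent kinases, from 1.17 to 6.17 RPKM (2.40). Plagl1, a zinc finger factor of the same imprinted network, was listed at 0 and at 2.18 RPKM. Glycolytic isoforms that the fetal liver uses were higher too, with Pkm from 51.7 to 165.2 RPKM (1.68), Hk2 from 3.69 to 8.42 RPKM (1.19) and Aldoa from 83.1 to 168.2 RPKM (1.02). Gpc1, given above, was also among the 7. These isoforms are also those of most cells that are not hepatocytes. The 10 genes at 0 in both libraries were the embryonic globins Hbb-y, Hbb-bh1 and Hba-x, the stem cell factors Lin28a, Lin28b, Trim71, Sall4 and Hmga2, the hepatoblast marker Dlk1, and Igf2bp1.

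Markers of the cell types that a liver preparation can hold also differed between the libraries, and these values stand beside every gene above. Their counts are to be read against the 16.5% of all genes called higher and 5.39% called lower. Scaling to the median gene changed the calls to 13 lower among hepatocyte genes, and to 17 higher among stellate cell, 4 among macrophage, 1 among endothelial and 13 among cell cycle genes. Those scaled calls are to be read against the 9.39% of all genes higher and 9.40% lower under the same scaling. Before that scaling the counts were as follows. Of 15 hepatocyte genes 0 were called higher and 9 lower, and Alb, Apoa1 and Fgb led them in the oil library at 8656, 4086 and 2575 RPKM against 6476, 1650 and 579 RPKM in the CCl4 library. All 18 stellate cell and myofibroblast genes with a value were called higher, with a summed level of 92.5 (oil) and 1067 RPKM (CCl4), led by Col3a1 (19.6 and 290.1 RPKM), Dcn (36.1 and 213.9 RPKM) and Col1a2 (6.69 and 141.8 RPKM). Of 12 macrophage genes 8 were called higher, and the summed level was 1814 and 4804 RPKM, with Lyz2 (321.0 and 1645 RPKM), C1qc (247.1 and 610.8 RPKM) and Cd5l (277.6 and 594.6 RPKM) the highest in the CCl4 library. Clec4f, a defining gene of Kupffer cells and next after Lyz2 in the oil library, had 282.6 and 254.5 RPKM. Of 12 endothelial genes 3 were called higher, and the summed level was 638 and 1097 RPKM, led by Clec4g (238.0 and 379.8 RPKM), Fcgr2b (75.0 and 154.4 RPKM) and Oit3 (62.3 and 106.1 RPKM). Of 15 cell cycle genes with a value 14 were called higher, among them Cdc20 (2.43 and 19.9 RPKM) and Mki67 (2.65 and 9.62 RPKM). The most abundant cell cycle gene, Pcna, had 28.3 and 53.7 RPKM and was the 1 within 2-fold. The part of cell composition in the values of the fetal and ductal genes was not tested.

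**Figure D4:**
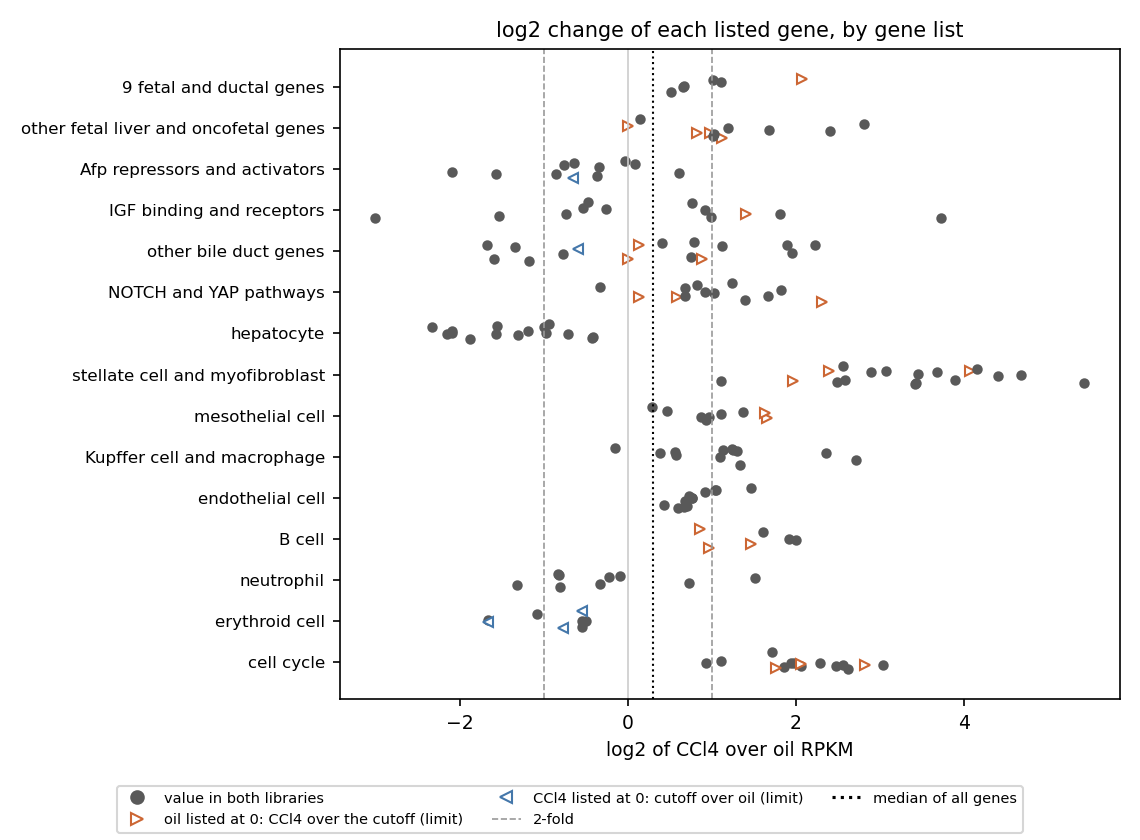
log2 of CCl4 over oil RPKM for each gene of each list, with filled points for genes with a value in both libraries and open triangles for limits set by the cutoff of 1 RPKM. In the top row the 5 fetal and ductal genes with both values lay between 0.51 and 1.11, and Afp is drawn at its lower limit. Dashed lines mark 2-fold and the dotted line the median of all genes.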

How the data were processed

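RNA-seq was analysed from 1 oil and 1 CCl4 library of primary mouse hepatocytes. The submitters' processing notes name CASAVA 1.4, TopHat2 and the mm10 build. The counting program and annotation version are not given in the sources used here. The deposited RPKM values were computed by the authors, and values below 1 RPKM are written as 0. On 1443 new lncRNAs deposited with RPKM and raw counts without that cutoff, no value listed at 0 exceeded 0.9995 RPKM. Deposited columns of the authors' own comparison (fold changes, p-values, q-values) were not used, although the fold changes could restore RPKM values below the cutoff.

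Symbols were assigned to 27049 of 27457 RefSeq transcripts from a GRCm38.p6 gene table, and for each gene the transcript with the highest mean RPKM was used. The measure was the log2 of CCl4 over oil RPKM without a pseudocount, and a 2-fold ratio was called. No test was run. Library totals of 57992603 (oil) and 64655550 reads (CCl4) were recovered from RPKM steps of genes under 400 bases, whole within 0.02 reads in 97.6% and 97.2% of them. The shortest length giving whole reads in both libraries gave lower bounds of reads. On 1296 new lncRNAs, with library totals taken from their own deposited counts and lengths, these equalled the counts in 79.9%. They never exceeded the counts, which was built in, since the shortest fitting length cannot be above the true one. The recovered totals were not checked in this way. The functions were tested on simulated data.

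The genes and lists were chosen with earlier results of these data known. Genes named are the 9 genes, the 3 most abundant of each list and, for the fetal, Afp, IGF and duct lists, those past 2-fold. Other genes were named after their values were seen. H19, Muc16 and Ly6g had no transcript in the mRNA table. H19, a noncoding RNA, was also looked up in the lncRNA table and had none under that symbol. Python 3.11.15, numpy 2.4.6, pandas 2.3.3, scipy 1.17.1 and matplotlib 3.10.9 were used.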

Additional observations from a re-analysis of the deposited data

Results flagged for a closer look

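The lncRNA table, from which the report uses only Igf2os, lists 2 imprinted transcripts of fetal tissues at more than 2-fold their oil value. The share of all lncRNA transcripts past 2-fold was not counted, so this count has no background of its own. Of mRNA genes 16.5% were called higher. Meg3 (NR_027652) had 1.17 (oil) and 2.47 RPKM (CCl4). Peg13 (NR_002864) had 2.72 and 5.54 RPKM. Both were flagged as data outside the mRNA comparison, and being higher in the CCl4 library does not set them apart. Of mRNA genes with both values 67.6% were higher there. Among the transcripts looked up, only Meg3 (NR_027652) and Peg13 had a value in both libraries. Scaled to the median mRNA gene their log2 changes were 0.77 and 0.73, within 2-fold. The other 2 Meg3 transcripts (NR_003633 and NR_027651) were listed at 0 in both libraries. Rian, which neighbors Meg3, was listed at 0 and 1.35 RPKM, and 2 of 4 Airn transcripts at 0 and 1.22 RPKM and at 0 and 1.18 RPKM, whereas Mirg, Kcnq1ot1 and Igf2os were listed at 0 in both libraries. These transcripts were chosen after the values were seen.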

How the results depend on the processing

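The log2 changes of Gpc3, Krt19, Krt7, Epcam and Cd24a kept their sign under every setting, but this was fixed in advance and is no check. A pseudocount added to both libraries keeps the direction, and each of these genes had a single transcript to sum. The median shift of 0.30 was smaller than the smallest change, 0.51 for Cd24a, and leaving out the most abundant mRNAs raised every value. Scaling to the median gene moved the log2 change to 0.81 for Gpc3, 0.71 for Krt19, 0.37 for Epcam, 0.36 for Krt7 and 0.21 for Cd24a. Leaving the 10 most abundant mRNAs out of the library size (taken as summed RPKM) moved it to 1.28 for Gpc3, 1.17 for Krt19, 0.84 for Epcam, 0.83 for Krt7 and 0.68 for Cd24a. Of the 3 genes called higher, 1 (Afp) remained after median scaling and 1 (Afp) at a 3-fold threshold, whereas a floor of 5 RPKM removed Afp and kept Gpc3 and Krt19. With a pseudocount of 1 RPKM, Gpc3 (0.97) and Krt19 (0.93) were under 2-fold. The share of all genes called depends on the value put in place of a listed 0. Taking it as 0.5 RPKM gave 2775 genes (23.1%) higher and 758 (6.31%) lower. Taking it as 0 with a pseudocount of 0.1 RPKM gave 2689 (22.4%) and 747 (6.22%). Both settings called the same 3 genes, Afp, Gpc3 and Krt19. Over all genes, 1984 higher and 647 lower became 1128 and 1129 with median scaling. Higher genes made up 75.4% of the calls, and 84.6% with the 10 most abundant mRNAs left out. At 3-fold the counts were 646 and 195, and among genes of at least 5 RPKM 1303 were higher. Among list medians, that of the IGF list changed to -0.054 with median scaling and to -0.26 over genes with both values, and that of the bile duct list to -0.032 with median scaling and 0.58 over genes with both values. A stricter threshold or filter lowers counts by construction, and scaling shifts every log2 change alike. No paired analysis was possible because there is 1 library per condition. Values below 1 RPKM limit what can be said of Afp in the oil library and of Igf2, Igf2bp3 and Sox9 in both.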

Other observations

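The pathways known to drive duct fate in the liver, NOTCH and YAP, were measured as 14 genes, of which 13 had a value, and 6 were called higher and 0 lower, beside 16.5% and 5.39% of all genes. After scaling to the median gene 4 of the 6 remained called and 0 were lower, beside 9.39% and 9.40% of all genes. The NOTCH target Hey1 was listed at 0 in the oil and at 4.97 RPKM in the CCl4 library, and Hes1 went from 3.96 to 10.4 RPKM (log2 change 1.40). The ligand Jag1 (1.52 and 2.87 RPKM), the YAP target Amotl2 (9.44 and 15.2 RPKM) and the receptors Notch1 (7.82 and 13.8 RPKM) and Notch2 (8.76 and 14.0 RPKM) were within 2-fold. Of the YAP targets, Ccn2 went from 7.04 to 25.0 RPKM (1.83) and Ccn1 from 2.46 to 7.83 RPKM (1.67). The coactivator Wwtr1 (4.77 and 9.68 RPKM) and the partner factor Tead2 (1.32 and 3.12 RPKM) were also called higher, whereas Yap1 had 12.4 and 9.90 RPKM and Ankrd1 was listed at 0 in both libraries. Sox9, which both pathways are known to induce in duct cells, was below the cutoff in both libraries. Several of these genes are also made by endothelial and stellate cells, whose part was not tested.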
